A study of Ambystoma mexicanum and Ambystoma andersoni and Ambystoma maculatum with 18 samples.

Results

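In the forelimb tip of Ambystoma andersoni larvae, 78 of the 889287 assembled features were at or near 0 when the limb was cut and were present in every library taken 24 h later. They were chosen from the measured counts themselves. A feature qualified when its rounded expected counts summed to 3 or fewer over the 3 libraries at 0 h and reached at least 10 in each of the 3 libraries at 24 h. The difference between the times is therefore fixed by the choice, and the values below describe the features without testing that difference. The feature IDs carry a TR number, a component number (c) and a feature number within the component (g), and no gene name. None of the 78 IDs was found as text among the RefSeq genes of the axolotl genome (0 matches). No sequences were compared, so this does not show whether the transcripts have axolotl counterparts. No gene, pathway or cell type is named.

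Each library held RNA from the most distal 1 mm of forelimb tissue of 5 pooled larvae, taken right after a cut through the mid-zeugopod (the lower arm) or 24 h after it. All larvae were amputated, so the 0 h tissue is freshly cut limb and not an uncut control. The labels give no strain, genotype, treatment or exact age. The study measured 3 species of Ambystoma, each with 3 libraries per time, and its title asks which expression changes the species share. The tissue is a mixture of cell types, and fewer cells of a type and less RNA per cell cannot be told apart in it. Without gene names the labelled tissue could not be checked against marker genes.

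As background, a salamander closes an amputated limb by the migration of epidermal cells over the cut surface, which forms a wound epidermis. Immune cells enter the stump early, and enzymes that degrade extracellular matrix loosen the tissue before a blastema of proliferating progenitor cells is built. A library of whole tissue reads transcripts newly made by resident cells together with those brought in by arriving cells.

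The 6 A. andersoni libraries held 11416858 to 17206949 expected counts. Across the 34397 features tested, Pearson's r of log2(CPM + 1) was 0.954 to 0.961 among the 0 h libraries. At 24 h it was 0.973 between the first and the third library, and 0.925 and 0.932 between these and the second. The second library is thus set apart from the others of its time, and results that rest on it are given with and without it. The labels do not say that the pools of a time were drawn as separate cohorts, so p-values and SDs measure the spread between these libraries.

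The members were low-abundance features. Their mean level over the 24 h libraries had a median of 1.64 CPM (each library's counts divided by its TMM-adjusted size) and ran from 0.822 to 18.3 CPM. The median over all 34397 tested features was 3.05 CPM. Of the 78 members, 67 reached a mean of 1 CPM, 29 reached 2 CPM, 7 reached 5 CPM and 3 reached 10 CPM. CPM is not divided by feature length, which the files do not give, so the order of the members by CPM is an order of counts.

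Summed over all members, the 0 h libraries held 47, 55 and 17 counts and the 24 h libraries 2554, 3345 and 2298. As CPM on library totals this was 3.24, 3.20 and 1.19 at 0 h and 187, 247 and 201 at 24 h. The sum at 24 h averaged 212 ± 31.7 CPM (SD, n = 3), and the second library was the highest. Few features made up much of that sum. The 3 members with the most counts held 23.7% of it, the 6 with the most held 34.8%, and 14 members held at least as much as the others together.

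**Figure D1:**
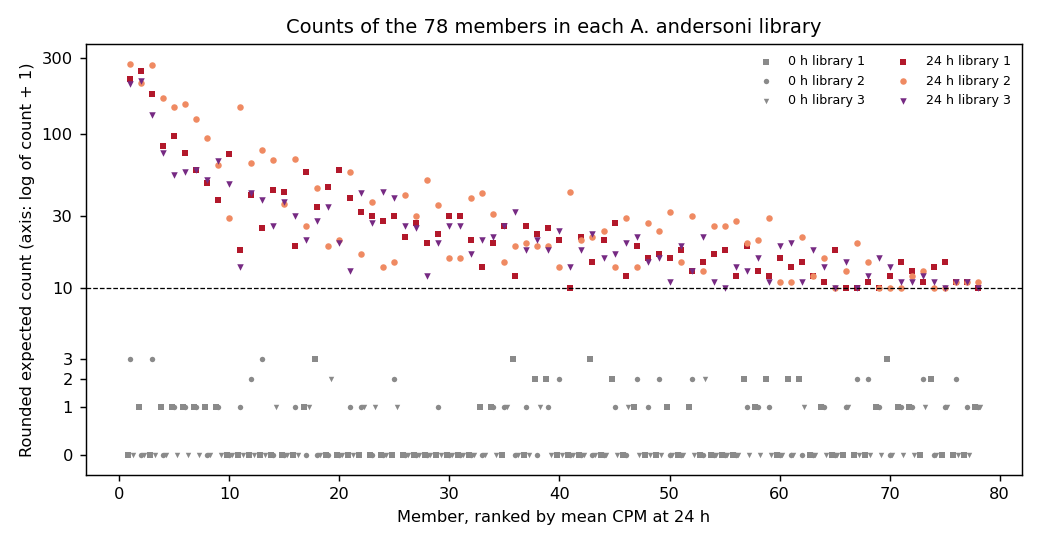
Rounded expected counts of the 78 members (x axis, ranked by mean CPM at 24 h) in each of the 6 A. andersoni libraries (y axis, log of the count plus 1). Grey symbols are the 0 h libraries, coloured symbols the 24 h libraries, and the dashed line marks the 10 counts required at 24 h. Of the 78 members, 22 had at least 20 counts in every 24 h library, and the 3 highest exceed 100 counts in every 24 h library.

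The plot of counts by member shows a short upper end and a long run of features near the required minimum. And_TR444609_c2_g1 had the highest mean level, with 0, 3 and 0 counts in the 0 h libraries and 220, 275 and 205 in the 24 h libraries. It stood at 18.3 ± 0.841 CPM (SD, n = 3) at 24 h. The level was close in all 3 libraries at 24 h, from 17.4 to 19.1 CPM, and all of its 0 h counts came from the second 0 h library.

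And_TR108134_c0_g1 had 1, 0 and 0 counts at 0 h and 247, 209 and 215 at 24 h, or 18 ± 4.11 CPM (SD, n = 3). Its second 24 h library was the lowest, at 13.3 CPM against 20.6 CPM in the highest. The ratio of summed counts, 24 h over 0 h and scaled to library size, was 790 with a 95% counting interval of 141 to 31251. The width of that interval comes from the single count at 0 h.

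And_TR42405_c0_g1 had 0, 3 and 0 counts at 0 h and 177, 268 and 130 at 24 h, or 14.6 ± 2.44 CPM (SD, n = 3). Among the 6 members with the highest mean CPM, it alone had fractional expected counts at 24 h. In each of the next 3 members the second 24 h library was the highest. And_TR224486_c0_g1 had 1, 0 and 0 counts at 0 h and 83, 167 and 76 at 24 h, a mean of 8.21 ± 2.07 CPM (SD, n = 3). And_TR460321_c4_g1 had 1, 1 and 0 counts at 0 h and 96, 146 and 55 at 24 h, a mean of 7.47 ± 2.12 CPM (SD, n = 3). And_TR54701_c0_g1 had 1, 1 and 0 counts at 0 h and 75, 153 and 57 at 24 h, a mean of 7.10 ± 2.31 CPM (SD, n = 3). Without the second 24 h library the means of these 3 members were 7.01, 6.58 and 5.79 CPM, in the order given.

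At 0 h, 20 members had 0 counts in every library, 15 had 1 count, 25 had 2 and 18 had 3. The rule limits the number of 0 h libraries in which such counts can appear: 32 members were seen in 1 of them, 25 in 2 and 1 in all 3. Of the 18 members with 3 counts, 7 had all of them in 1 library. A count of 0 over the 3 libraries at 0 h allows a level of up to 0.0663 CPM (3 counts over the group). Against that floor, the 20 members with 0 counts were at least 14.9-fold to at least 59.3-fold higher at 24 h, with a median bound of 27.3. And_TR77081_c0_g1 had the highest of these bounds, with 74, 29 and 48 counts at 24 h and 4.17 ± 2.19 CPM (SD, n = 3). For the 58 members with 1 to 3 counts, the pooled ratio of 24 h over 0 h ran from 12.2 to 790 with a median of 36.8. The rule sets a minimum for all of these bounds and ratios, so their low ends reflect its thresholds. The intervals account for counting error alone. The bounds account only for counting error at 0 h and take the 24 h sum as measured. These reads carry no molecular identifiers, and several can come from 1 molecule.

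The bounds of the rule cut through a continuous range of features. Just inside, the 18 members with 3 counts at 0 h had a median of 59 counts summed over the 24 h libraries. Just outside, 22 features with 4 counts at 0 h also met the 24 h bound, with a median of 67.5. Just inside the bound at 24 h, 11 members had a lowest 24 h count of 10, and just outside 22 features had a lowest count of 9.

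A further 137 features met the 0 h bound and reached 10 counts in exactly 2 of the 24 h libraries. The library that fell short was the first for 30, the second for 71 and the third for 36 of them. And_TR45143_c4_g2 had 0, 3 and 0 counts at 0 h and 1743, 9 and 1162 at 24 h, so a shortfall of 1 count in the second 24 h library left out the feature of this pattern with the most counts. It was picked out after its values were seen. Others had no counts at all in 1 library, such as And_TR93545_c0_g4 with 196, 0 and 31 counts and And_TR80904_c1_g1 with 0, 79 and 86 counts at 24 h. Each of these 2 had 0 counts in all 0 h libraries. Without the second 24 h library the rule finds 149 features, which include the 78.

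Among the 3 libraries at 24 h, a difference above the minimum of 10 counts was not fixed by the rule. The coefficient of variation of CPM had a median of 29.6% over the members, with quartiles of 18.2% and 42.5%. Over all tested features with at least 10 counts in each 24 h library, 27068 in number, the median was 24.5%. Counting error alone gives a median of 21.9% at the members' counts and 12.7% at those of the 27068 features. The coefficient exceeded that of counting error in 54 of the 78 members, 69.2%, and in 79.7% of the 27068 features.

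**Figure D2:**
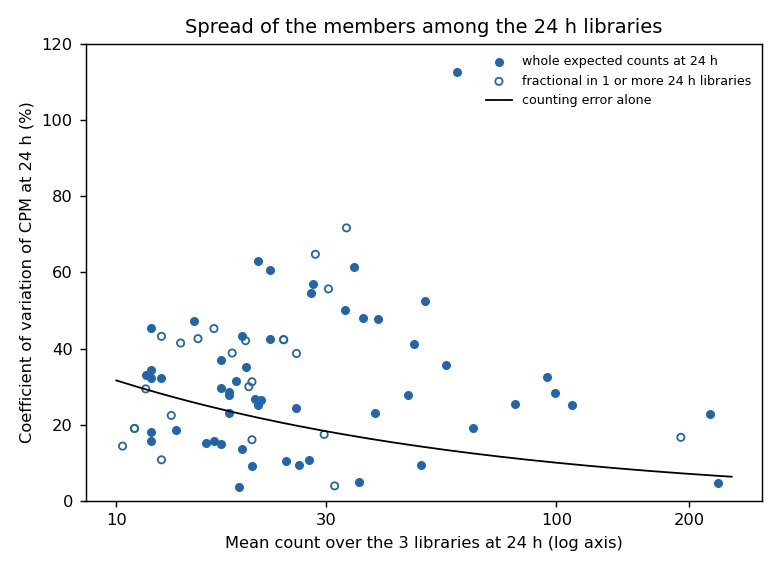
Coefficient of variation of CPM among the 3 libraries at 24 h (y axis, %) against the mean 24 h count (x axis, log scale), 1 point per member. The black line is the coefficient that counting error alone gives, open points had fractional expected counts in at least 1 of the 24 h libraries, and 54 of 78 members lie above the line.

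Much of this spread was in the second 24 h library. Without it the members' median coefficient was 16.3%, against 29.4% without the first and 29.3% without the third. Over the 27068 features the same values were 12.0%, 24.4% and 24.7%, so the members moved with the whole table. The second library was the highest for 29 members and the lowest for 39 of the 78. Over the 27068 features it was the highest for 35.8% and the lowest for 48.1%. On library totals in place of TMM it was the highest for 38 members and the lowest for 28, so the order of the libraries depends on the scaling.

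The member with the widest spread was And_TR64127_c0_g3, with 0, 1 and 0 counts at 0 h and 18, 146 and 14 at 24 h. Its coefficient of variation was 113%, and the highest 24 h library stood 7.09-fold above the lowest. The mean of 4.02 CPM rests on the second library, and without it the mean of the other 2 libraries was 1.41 CPM. The narrowest spread was that of And_TR490122_c5_g3, with 0, 2 and 0 counts at 0 h and 17, 24 and 16 at 24 h. Its 24 h level was 1.48 ± 0.0520 CPM (SD, n = 3), with a coefficient of 3.52%, below that of counting error at such counts.

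An expected count divides reads that match several features, so a fractional value shows that a feature shares reads with another. Of the 78 members, 24 had a fractional value in at least 1 library at 24 h, 30.8%. Among the 27068 features with the same minimum the share was 28.8%. The other 54 members had whole counts in every 24 h library. And_TR78071_c9_g8 and And_TR78071_c9_g10 had identical deposited values, 30.5, 16 and 26.5 at 24 h and 0 at 0 h. They cannot be told apart in these data and count as 1 signal.

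In the edgeR quasi-likelihood test of 24 h against 0 h over all features, 3.78% of the 34397 tested features were called higher at 24 h at an adjusted p under 0.05. All 78 members passed the filter on low counts, and 77 of them were called higher. The rule used the same contrast, so nothing is read from that count. The member without a call, And_TR95199_c3_g1, had 3, 0 and 0 counts at 0 h and 12, 10 and 14 at 24 h. It was named after its values were seen. The calls depended on which library was left out: without the third 24 h library 43 members were called, without the first 52, without the second 77, and without any 1 of the 0 h libraries 64. Over all 34397 tested features, 353, 432 and 1800 were called higher in the first 3 of these fits. Without 1 of the 0 h libraries 536 to 867 were, against 1299 with all libraries. The loss of calls was thus not particular to the members.

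The 78 members belonged to 76 components, that is, sets of features whose IDs have the same TR and c numbers. For 29 members no other feature of the component was listed, 37.2% of them against 31.1% of all tested features. Most members thus had neighbours, which are features of the same component that did not meet the rule by their own counts. The 76 components listed 140 further features, of which 27 were at 0 in all 6 libraries and 44 passed the filter on low counts.

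Of these 44 neighbours, 13 rose and 3 fell, 29.5% and 6.82%, where 3.78% of all tested features were called higher and 1.96% lower. Their median log2 fold change of 24 h over 0 h was 0.28, against -0.00089 over all tested features. Neighbours may share reads with the members, were measured in the same libraries and are defined by failing the rule. Among those not called, a pair from the same component had equal rounded counts in every library, so the 44 may hold fewer separate signals. The shares over all tested features include the members, so this is a description and not independent support. Without the first 0 h library, the first 24 h library or the third 24 h library, 10 neighbours were called. In each of these 3 fits 8 of the 10 rose. Of all 34397 tested features, 585, 432 and 353 rose in these fits and 181, 235 and 181 fell, in the order given. Without the second 24 h library, 13 neighbours rose and 4 fell, where 1800 of all tested features rose and 794 fell.

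**Figure D3:**
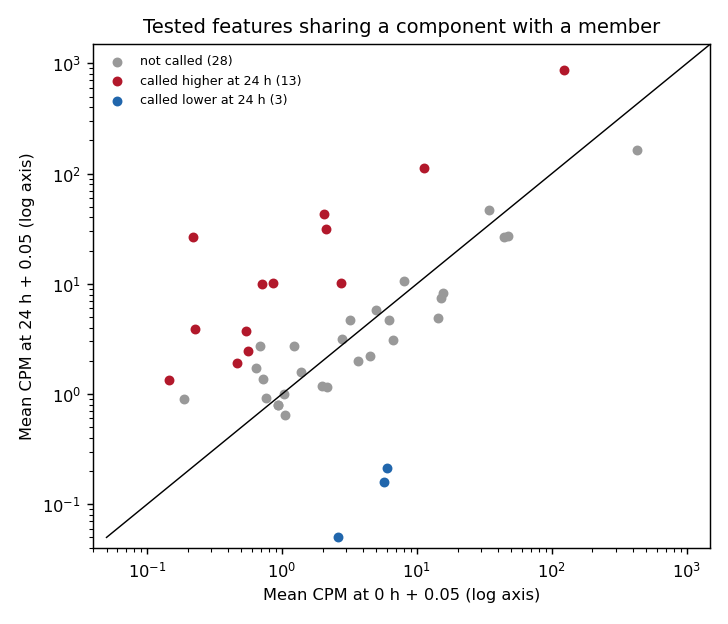
Mean level at 24 h against mean level at 0 h (both in CPM plus 0.05, log axes, n = 3 libraries each) for the 44 tested features that share a component with a member. The line marks equal levels, red points were called higher at 24 h (13), blue points lower (3) and grey points were not called (28).

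In 11 of the 76 components at least 1 neighbour was called higher at 24 h. And_TR108134_c0_g2, beside the member And_TR108134_c0_g1, had 3, 4 and 1 counts at 0 h and 412, 272 and 298 at 24 h. It missed the rule by its 0 h counts, and its pooled ratio was 145 (95% counting interval 73.1 to 336; edgeR adjusted p = 0.000866). In this component both features were low at 0 h, and in both the first 24 h library was the highest in counts.

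And_TR287212_c0 held 2 members and 1 other feature. And_TR287212_c0_g1 had 1, 0 and 1 counts at 0 h and 57, 26 and 21 at 24 h. And_TR287212_c0_g2 had 0, 0 and 2 counts at 0 h and 46, 19 and 34 at 24 h. The other, And_TR287212_c0_g3, had 5, 15 and 14 counts at 0 h and 156, 102 and 115 at 24 h, with a log2 fold change of 3.68 (edgeR adjusted p = 0.00788). All 3 features had their highest 24 h count in the first library. For the 2 members the rule fixed that the 24 h counts lay above the 0 h counts, and this also held for And_TR287212_c0_g3.

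Most but not all of the other neighbours that rose were already counted in every 0 h library. The next 3 examples were, and they were picked out after their values were seen. And_TR498681_c2_g3 stood at 123 ± 39.9 CPM at 0 h and 868 ± 290 CPM at 24 h (SD, n = 3; log2 fold change 2.82, edgeR adjusted p = 0.00672). Beside it the member And_TR498681_c2_g2 had 3, 0 and 0 counts at 0 h and 15, 22 and 23 at 24 h, 0.184% of the component's 24 h level in CPM.

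And_TR47899_c9_g10 rose from 11.3 ± 5.84 to 112 ± 4.64 CPM (SD, n = 3; log2 fold change 3.31, edgeR adjusted p = 0.00732), beside the member And_TR47899_c9_g6 with 11 counts in each 24 h library. And_TR81498_c0_g5 rose from 2.01 ± 0.361 to 43.4 ± 11.7 CPM (SD, n = 3; log2 fold change 4.42, edgeR adjusted p = 0.000866), beside the member And_TR81498_c0_g3 with 44, 68 and 26 counts at 24 h. These members held 0.744% and 4.38% of the 24 h level of their components in CPM.

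Of the 3 tested neighbours of the members with the narrowest and the widest spread, 1 passed the test. And_TR490122_c5_g1, beside the member with the narrowest spread, had 39, 57 and 27 counts at 0 h and 162, 96 and 116 at 24 h (log2 fold change 1.90, edgeR adjusted p = 0.0181). That call was lost without the first or the third library of either time, with edgeR adjusted p of 0.0557 to 0.0687. Beside the member with the widest spread, And_TR64127_c0_g1 had 78, 49 and 32 counts at 0 h and 19, 14 and 36 at 24 h (log2 fold change -0.92, edgeR adjusted p = 0.363). And_TR64127_c0_g2 had 38, 31 and 17 counts at 0 h and 14, 9 and 18 at 24 h (log2 fold change -0.78, edgeR adjusted p = 0.378). The second 24 h library, where the member was highest, was the lowest in counts for both of these neighbours. And_TR42405_c0_g2, beside the member And_TR42405_c0_g1, had 18 counts in the second 24 h library and 0 in the other 5.

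Features of 1 component changed in opposite directions in 2 cases, picked out after their values were seen. In And_TR58015_c0 the member And_TR58015_c0_g8 had 0, 0 and 1 counts at 0 h and 30, 37 and 27 at 24 h, with 2.46 ± 0.0961 CPM (SD, n = 3) at 24 h. Before rounding its 24 h values were 30.46, 37.16 and 27.27, so its level and SD depend on how shared reads were divided. And_TR58015_c0_g2 of the same component fell from 105, 89 and 55 counts to 2, 1 and 1 (log2 fold change -5.63, edgeR adjusted p = 0.00174). And_TR58015_c0_g3 fell from 109, 86 and 62 counts to 4, 1 and 1 (log2 fold change -5.14, edgeR adjusted p = 0.00466). In And_TR58015_c0_g2 and And_TR58015_c0_g3 the counts of the times did not overlap. Further features of the component had few counts, were not tested and changed in either direction. Higher at 24 h were 1 with 1, 1 and 0 counts against 3, 11 and 3, and 1 with 3, 0 and 1 against 9, 28 and 18. Before rounding the first of these had 2.54, 10.84 and 2.73 at 24 h, fractions that complete those of the member to whole counts. Its 24 h reads thus appear divided with the member, and its rise is not a separate signal. Those with 2, 1 and 1 and with 2, 3 and 3 counts at 0 h had 0 at 24 h. For the member, the rule fixed both the direction and the lack of overlap.

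The most abundant feature of that component, And_TR58015_c0_g4, had 426 ± 300 CPM at 0 h and 165 ± 86.5 CPM at 24 h (SD, n = 3; log2 fold change -1.37, edgeR adjusted p = 0.206), so the member held 1.45% of the component's 24 h level. In And_TR78071_c9 the identical members And_TR78071_c9_g8 and And_TR78071_c9_g10 stood beside And_TR78071_c9_g9, which had 27, 21 and 50 counts at 0 h and 0 in every 24 h library. Before rounding its 0 h values were 27.08, 20.64 and 50, so it shares reads with another feature. A further feature of the component had 31.92, 32.36 and 0 at 0 h and 0 in every 24 h library. In the first and the second 0 h library the fractions of both features complete each other to whole counts, so reads appear divided between them. The values of And_TR78071_c9_g9, its spread among the 0 h libraries and its test results depend on that division. And_TR78071_c9_g9 was at least 27.7-fold lower at 24 h (edgeR adjusted p = 0.0268), and the mirrored rule below selects it. Without the first 0 h library, the first 24 h library or the third 24 h library its edgeR adjusted p was 0.0647 to 0.068. And_TR78071_c9_g4, the most abundant feature there, had 15.7 ± 4.44 and 8.28 ± 0.831 CPM (SD, n = 3; edgeR adjusted p = 0.0803). And_TR78071_c9_g6 had 6.17 ± 0.419 and 4.66 ± 0.0842 CPM (SD, n = 3; edgeR adjusted p = 0.321).

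**Figure D4:**
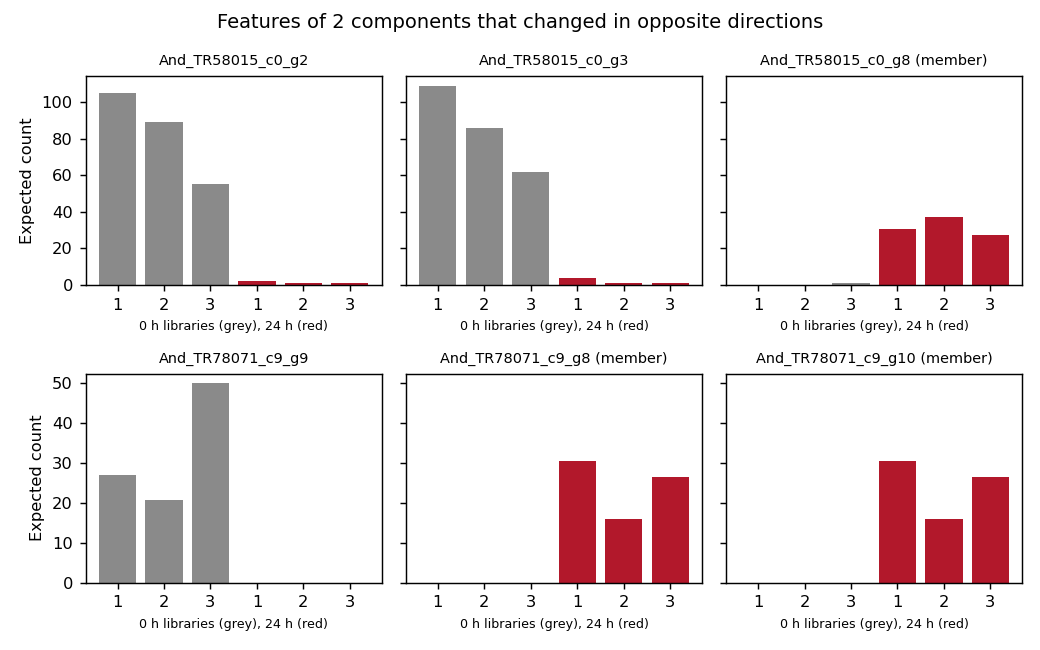
Expected counts (y axis, shared within a row) in the 3 libraries at 0 h (grey) and the 3 at 24 h (red) for features of And_TR58015_c0 (upper row) and And_TR78071_c9 (lower row). In both rows the left feature is present at 0 h and at or near 0 at 24 h, and the members on the right show the reverse, as the rule requires of them.

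The components themselves differed in their level at 0 h. Of the 76 components, 42 had 3 or fewer counts in all at 0 h, 14 had 4 to 29 and 20 had at least 30, a division chosen after the values were seen. With the members' own counts taken out and the remaining counts summed per component, 28258 components were tested, of which 4.92% were called higher and 3.2% lower. Of the 20 components with at least 30 counts at 0 h, 8 were called higher, 1 was called lower and 11 were not called, with a median log2 fold change of 0.70. These sums cover the same neighbours as above and add no separate evidence. The members' share of the 24 h level of these components had a median of 12.1% and ran from 0.184% to 67.1%.

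A TR number above the component also grouped members. The 78 members carried 73 TR numbers, and 5 TR numbers had 2 members each. In 2 of them both members lay in the same component, And_TR287212_c0 and And_TR78071_c9, the latter with the identical members. The other pairs joined different components. And_TR460321_c4_g1 shared its number with And_TR460321_c2_g1, which had 19, 69 and 30 counts at 24 h and 1 count at 0 h. In both the second 24 h library was the highest. And_TR91109_c0_g1 had 43, 36 and 37 counts at 24 h, and And_TR91109_c1_g3 had 22, 41 and 26, with 0 counts at 0 h for both. And_TR63700_c7_g2 had 34, 45 and 28 counts at 24 h, and And_TR63700_c9_g1 had 21, 24 and 16.

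The mirrored rule, at most 3 counts over the 24 h libraries and at least 10 in each 0 h library, found 105 features in A. andersoni. They held 0.380% of the features at the minimum in every 0 h library, where the members held 0.288% of those at the minimum at 24 h. The median level was 1.77 CPM at 0 h for the mirrored features and 1.64 CPM at 24 h for the members. More of the mirrored features were at 0 in all libraries of the low time, 43.8% against 25.6% of the members. In total counts the 24 h libraries were smaller than the 0 h libraries, but by TMM-adjusted size the third 0 h library was the smallest of all. These shares were not compared at equal depth. A shared component joined 1 of the 76 components with a member to the 100 with a mirrored feature, And_TR78071_c9. Both numbers of features move with depth, and with all libraries thinned to the size of the smallest the rule found 94 features and its mirror 78.

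The same rule found 256 features in A. mexicanum (the axolotl) and 41 in A. maculatum (the spotted salamander), and the mirrored rule found 9 and 526. As a share of features with at least 10 counts in each 24 h library, the rule's features were 0.772% in the axolotl and 0.284% in the spotted salamander, beside the 0.288% of A. andersoni. The mirrored features were 0.032% and 2.18% of those at that minimum in each 0 h library, beside 0.380% in A. andersoni. The mirrored rule was not run on libraries thinned across species. Features are not matched among species and the tables were made separately, so these numbers stand side by side and were not tested. Leaving out 1 library loosens the rule in every species, to 108 to 210 features in A. andersoni, 307 to 688 in A. mexicanum and 55 to 74 in A. maculatum. The 688 of A. mexicanum came from leaving out the third of its 0 h libraries. Over the 29551 features averaging 1 CPM or more in that table, that library had a Pearson's r of 0.776 and 0.716 with the other 0 h libraries, which had 0.966 with each other. With all 18 libraries thinned to the smallest, the rule found 131, 70 and 41 features in the axolotl, A. andersoni and the spotted salamander. Of these, 42, 35 and 24 were among the features found without thinning. Similar numbers therefore do not stand for the same features.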

How the data were processed

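The deposited values are expected counts (estimated counts that need not be whole), made by the authors using RSEM, per the submitters' processing notes. For the aligner, assembler and assembly source the entry is: not given in the sources used here. The study deposited 1 table per species, with 0 columns left unused. Expected counts were rounded to whole numbers. The members and the rule for named features were chosen with earlier results of these data known. Named features are the 6 members with the highest mean CPM at 24 h, those with the widest and narrowest spread, the members of the components with most members, and up to 2 other features of each of these components.

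All A. andersoni features passing filterByExpr (minimum count 10, minimum total 15) were tested with edgeR 4.0.16 in R 4.3.3: TMM, time as the only term, the older quasi-likelihood F test, Benjamini-Hochberg adjustment over 34397 features, threshold 0.05. They held 96.4% to 97.6% of each library. The test was checked on simulated data with 200 changed features. Replicate numbers follow accession order and pair nothing. DESeq2 1.42.0 was an alternative. Pooled ratios have exact conditional 95% intervals.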

Additional observations from a re-analysis of the deposited data

How the results depend on the processing

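No paired analysis was possible because the labels carry no replicate numbers, and numbers in accession order only name libraries. The number of members follows the bounds of the rule: 20 with 0 counts at 0 h, 159 with up to 6, 275 with at least 5 counts in each 24 h library and 22 with at least 20. It was 74 without rounding and 94 with thinned libraries, of which 64 are among the 78, and 108 to 210 without 1 library. The mirrored rule gave 46, 174, 320 and 34 under the same 4 bounds, and 122 to 199 without 1 library. In A. mexicanum the rule gave 131 with thinned libraries and 307 to 688 without 1 library, and in A. maculatum 55 to 74 without 1 library.

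The 1974 calls over all features became 1238 on library totals alone, 4165 with no filter, 3341 with the DESeq2 Wald test, and 534 to 2594 without 1 library. With no filter 50.4% of calls rose, against 65.8%. Members called were 77 or 78 of 78 under the other scalings, tests and no filter, and 43 to 77 without 1 library. A filter on a mean of at least 1 CPM over all 6 libraries left 30 members, and 30 were called. Over all 29031 features left by that filter, 1558 were called. Neighbours called were 16 of 44 tested (13 rose, 3 fell) and 27 of 113 with no filter (20 rose, 7 fell). They were 20 of 44 with the DESeq2 Wald test (14 rose, 6 fell) and 10 to 17 of 44 without 1 library. All tested features numbered 34397 in these fits, but 641316 with no filter, so the counts with no filter are of a larger set. The members' share at 24 h was 288 CPM once the most abundant feature was taken out of the total. It was 194 to 224 without 1 library at 24 h. Their median coefficient of variation was 32.3% on library totals, 29.3% with DESeq2 size factors and 16.3% to 29.4% without 1 library. None of the 37 named features with a fit reversed its direction under the 12 alternatives, and 5 others named were not tested. For the members among the 37 the rule fixed the direction, and several others were named after their values were seen. No stability is read from this. And_TR95199_c3_g1 was called without the first 0 h library, with no filter and with DESeq2. And_TR78071_c9_g4 was called lower without the third 0 h library and with DESeq2, and And_TR58015_c0_g4 with no filter. Leaving out libraries for the share, the spread and the other species' numbers, summing per component, and the fits of features named after their values were seen were chosen after seeing the data. How the spread changes with depth was not tested.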
